A study of Mus musculus with 6 samples.

Results

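The genes described here are 6 members of the sodium pump machinery, the beta subunits Atp1b1, Atp1b2 and Atp1b3 and the FXYD regulators Fxyd1, Fxyd6 and Fxyd7. They were chosen by name, as every probe set whose only gene symbol in the platform annotation was one of these 6, which gave 11 of the 45037 probe sets other than controls and 6 of the 18193 genes. Expression was measured in choroid plexus epithelium taken from whole brains of mice, with 1 single-colour oligonucleotide array of total RNA per preparation and 6 arrays in all. By the sample descriptions 3 preparations were wild type (WT) B10.PL and 3 were RAG-/- on that strain. RAG proteins cut antigen receptor genes, and mice without them have no mature T or B cells, but the labels do not say which Rag gene was disrupted. Nor do they give the animals' age or sex, or say whether a preparation came from 1 animal or a pool. Sample titles carry 3 codes, each held by 1 WT and 1 RAG-/- preparation, and these are called pairs 1 to 3. In pair 1 the descriptions state a swap and contradict the titles of both samples, so the genotypes were compared by description and, separately, by title. Arrays are named here by the description, and by title WT replicate 1 is a RAG-/- array and RAG-/- replicate 1 a WT array.

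The sodium pump (Na+/K+-ATPase) moves sodium out of the cell and potassium in, using ATP. Its catalytic alpha subunit needs a beta subunit to fold and to reach the membrane, and FXYD proteins are small membrane proteins that bind the pump and tune its affinity for ions. In the choroid plexus the pump sits in the membrane that faces the ventricle, where it drives the secretion of cerebrospinal fluid. Atp1b1 is the common beta subunit of epithelia, Atp1b2 is known as an adhesion molecule of glia, and Atp1b3 is expressed widely. Fxyd1, phospholemman, is known from heart, muscle and choroid plexus, while Fxyd6 (phosphohippolin) and Fxyd7 are known from the brain.

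Values are log2(intensity + 16) after quantile normalization, and folds are on that scale, which understates the change of dim probe sets. The epithelial marker Ttr, the thyroxine carrier that choroid plexus secretes, lay between 14.69 and 14.83 on the 6 arrays. Of 10 astrocyte and 13 neuron markers with a probe set, all passed the filter on dim probe sets as well, so transcripts of other brain cells were present. RAG-/- replicate 2 stood apart, with the highest value of 7 of the 10 astrocyte markers and of 12 of the 13 neuron markers, and the lowest value of 13 of 14 epithelial markers. It was also highest for 6 of 11 oligodendrocyte markers and lowest for 9 of 10 fibroblast and 4 of 7 pericyte and smooth muscle markers. Of all genes past the filter, 25.3% were highest on that array. The arrays of pair 3 stood apart in another way. The ratio of the 3' to the 5' control probe set, which rises as RNA is degraded or copied short, was 26.2 and 24.1 for Actb in pair 3 against 2.99 to 4.52 in the other pairs, and 15.7 and 11.4 against 1.93 to 2.38 for Gapdh. The number of arrays limits the precision of all values, and since no label says that preparations came from separate animals, p-values here reflect sample spread that could be technical in part.

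Promoter windows are shown for Atp1b1, steadiest by the brightest probe set, and Atp1b3 and Fxyd1, the members that moved most alike over the arrays. Each is the 250 bases before a RefSeq transcript start, read 5′ to 3′ on the gene's strand, from build GRCm38.p6 of the C57BL/6J strain rather than B10.PL. Capitals mark matches, on either strand, to the motifs searched. These were the GC box (GGGCGG), which binds Sp proteins, the CCAAT box, which binds NF-Y, the TATA box (TATAAA), which positions the polymerase, and its variant (TATATA), the site of OTX homeodomain proteins (TAATCC), and the E-box of basic helix-loop-helix proteins (CACGTG). The Atp1b1 window is chr1:164458356-164458605, minus strand.
Atp1b1: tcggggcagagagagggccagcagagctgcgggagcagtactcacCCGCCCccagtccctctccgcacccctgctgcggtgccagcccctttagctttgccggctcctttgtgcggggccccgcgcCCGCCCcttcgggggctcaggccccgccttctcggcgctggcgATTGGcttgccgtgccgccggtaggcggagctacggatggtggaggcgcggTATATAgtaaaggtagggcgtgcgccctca
One of the 2 Atp1b3 windows in the table is chr9:96364432-96364681, minus strand.
Atp1b3: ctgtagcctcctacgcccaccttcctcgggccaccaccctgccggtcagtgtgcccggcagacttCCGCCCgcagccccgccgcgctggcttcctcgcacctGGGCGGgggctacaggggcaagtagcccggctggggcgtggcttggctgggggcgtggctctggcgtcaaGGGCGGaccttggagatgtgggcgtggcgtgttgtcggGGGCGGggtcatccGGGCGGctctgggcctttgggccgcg
The Fxyd1 window is chr7:31054854-31055103, minus strand.
Fxyd1: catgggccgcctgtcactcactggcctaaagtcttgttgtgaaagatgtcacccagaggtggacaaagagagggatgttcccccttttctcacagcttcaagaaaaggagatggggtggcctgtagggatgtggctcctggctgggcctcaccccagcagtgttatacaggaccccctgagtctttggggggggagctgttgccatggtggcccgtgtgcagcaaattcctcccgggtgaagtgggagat
The Atp1b1 window held 2 GC boxes, 1 CCAAT box and 1 match to the TATA variant, the Atp1b3 window shown held 5 GC boxes, and the Fxyd1 window matched none of the 6 motifs. No matches of different motifs overlapped in these windows. Of 32851 windows of this length in the RefSeq table, 32.7% held the GC box, 33.8% the CCAAT box, 12.4% the TATA box, 5.25% its variant, 6.25% the OTX site and 6.02% the E-box. G and C made up 70.4% of the Atp1b1 window, 73.6% of the Atp1b3 window shown and 57.2% of the Fxyd1 window, against a median of 52.4% over the table. The other Atp1b3 window, chr9:96363716-96363965 on the minus strand, held no GC box but 1 E-box, with a GC content of 76.8%. So Atp1b3 and Fxyd1, which moved together, shared none of the motifs searched within these windows. The Fxyd1 window lies inside the gene, past its outermost start, while the Atp1b3 window shown lies just before the gene. Sequence before the outermost Fxyd1 start was thus not searched. The Fxyd6 window had 1 CCAAT box and a GC content of 50.4%. It too lies inside its gene, as does the other Atp1b3 window.

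The beta subunits were bright on every array. Atp1b1 had the brightest probe set of the members, at 13.97, 14.26 and 14.13 in WT replicates 1, 2 and 3 and 14.05, 14.22 and 14.05 in RAG-/- replicates 1, 2 and 3 (probe set 1423890_x_at). The groups overlapped and no array stood out. The suffix x_at marks probe sets of which some probes may also bind other transcripts. Its mean percentile among the probe sets of an array was 99.6, and its SD over the 6 arrays was 0.11, smaller than that of 98.6% of 13537 genes, whose median SD was 0.41. Those genes were of all levels of brightness. Among other bright genes, the brightest probe set had an SD of 0.06 for Ttr and 0.26 for Sgk1. The other Atp1b1 probe sets had SDs from 0.099 (1439036_a_at) to 0.40 (1418453_a_at) and 0.67 (1455949_at). A percentile says how bright a probe set is and does not order transcripts of different genes, because probe sets bind with different strength.

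Atp1b2, the beta subunit named for glia, read 11.68, 12.43 and 12.23 in WT replicates 1 to 3 and 11.86, 13.12 and 12.10 in RAG-/- replicates 1 to 3 (1435148_at). RAG-/- replicate 2 was highest and both arrays of pair 1 were lowest, in overlapping groups. The mean percentile was 96.3 and the SD over the arrays 0.51. The dimmer Atp1b2 probe set, 1422009_at, lay between 6.53 and 7.35 at a mean percentile of 52.2, and followed the bright one over the 6 arrays (r = 0.94).

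Atp1b3 read 12.83, 13.20 and 12.14 in WT replicates 1 to 3 and 13.10, 12.69 and 12.41 in RAG-/- replicates 1 to 3 (1423126_at), at a mean percentile of 97.5. Both arrays of pair 3 lay below the other 4, 1.60-fold on average, and the genotypes overlapped. The other Atp1b1 probe sets gave a wider picture of that gene than the brightest one. Probe sets 1439036_a_at (13.95 to 14.21) and 1451152_a_at (13.71 to 13.99) were as steady. By contrast 1418453_a_at lay at 12.78 and 12.84 in pair 3 against 13.26 to 13.80 elsewhere, 1.63-fold lower, and the dim 1455949_at spanned 5.81 to 7.57 with its lowest value in WT replicate 1.

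**Figure D1:**
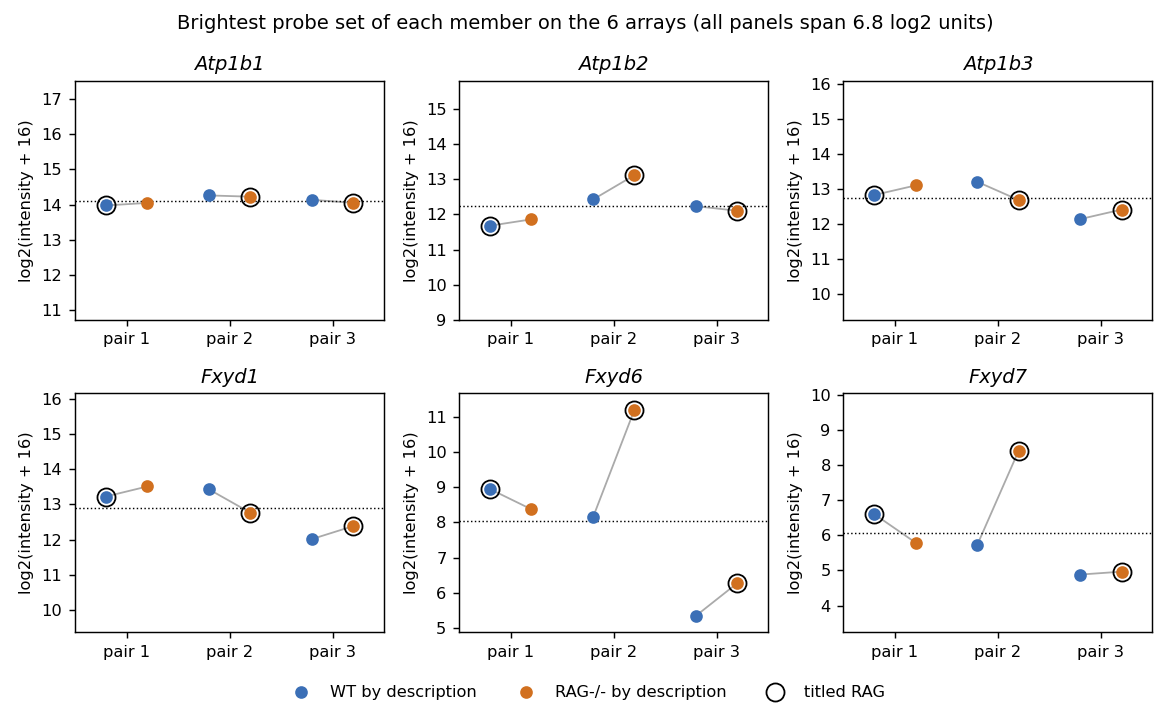
Brightest probe set of each member, as log2(intensity + 16), on the 6 arrays ordered by pair. Colour gives the genotype by description, a ring marks arrays titled RAG, the dotted line is the mean over the arrays, and all panels span the same range. Atp1b1 stays within 13.97 to 14.26, while Fxyd6 runs from 5.35 in WT replicate 3 to 11.20 in RAG-/- replicate 2.

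Among the FXYD regulators, Fxyd1 was bright on every array, while the signal of Fxyd6 and Fxyd7 ranged widely. Fxyd1 read 13.23, 13.43 and 12.02 in WT replicates 1 to 3 and 13.51, 12.77 and 12.38 in RAG-/- replicates 1 to 3 (1421374_a_at), at a mean percentile of 97.8. Both pair 3 arrays were below the other 4, 2.05-fold on average, and the genotypes overlapped. The SD over the arrays was 0.60, which 24.7% of genes exceeded.

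Fxyd6 read 8.95, 8.16 and 5.35 in WT replicates 1 to 3 and 8.37, 11.20 and 6.27 in RAG-/- replicates 1 to 3 (1417343_at). In deposited intensity these were 495, 280 and 25.7 for WT and 314, 2316 and 60.2 for RAG-/-. RAG-/- replicate 2 was highest, pair 3 was lowest, and the genotypes overlapped. The probe set stood at the 92.5th percentile of RAG-/- replicate 2 and at the 23.9th of WT replicate 3. Its SD of 2.07 was exceeded by only 0.163% of the 13537 genes.

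Fxyd7 had the lowest values of the 6 genes, at 6.60, 5.73 and 4.88 in WT replicates 1 to 3 and 5.79, 8.40 and 4.97 in RAG-/- replicates 1 to 3 (1419200_at). The deposited intensities were 78.1, 38.9 and 14.0 for WT and 34.1, 352 and 14.7 for RAG-/-. Again RAG-/- replicate 2 was highest and pair 3 lowest. All 6 members passed the filter on dim probe sets, but Fxyd7 did so through RAG-/- replicate 2: its mean was at the limit of 6.06, and without that array it was 5.60. The SD over the arrays was 1.31, which 1.99% of genes exceeded.

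In 4 of the 6 members, Atp1b3, Fxyd1, Fxyd6 and Fxyd7, both pair 3 arrays were the lowest, against 17.0% of all genes. In 3 of the 6, Atp1b2, Fxyd6 and Fxyd7, RAG-/- replicate 2 was the highest, against 25.3% of all genes. Fxyd7 passed the filter through that array, so only Atp1b2 and Fxyd6 bear on this comparison. The median probe set was higher in pair 3 by 0.05. Fxyd7 on both pair 3 arrays and Fxyd6 on WT replicate 3 were below the filter limit of 6.06, so the size of their drop was not measured. Fxyd7 was below that limit on RAG-/- replicate 1 (5.79) and WT replicate 2 (5.73) too. Its differences within pairs 1 and 2 thus also draw on dim signal.

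The members that were low in pair 3 were low on the arrays with the high control ratios, which were high nowhere else, so no correlation between them is given. Probe sets of 1 gene gave unlike readings of pair 3. The Atp1b1 probe set 1418453_a_at was 1.63-fold lower there, while the brightest Atp1b1 probe set, at 14.13 and 14.05, lay among the other arrays. Ttr had a similar split: its probe set 1451580_a_at read 13.40 and 14.12 in pair 3 against 14.50 to 14.74 elsewhere, and its brightest probe set did not fall there. The part of RNA quality in the low readings of pair 3 was not tested.

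**Figure D2:**
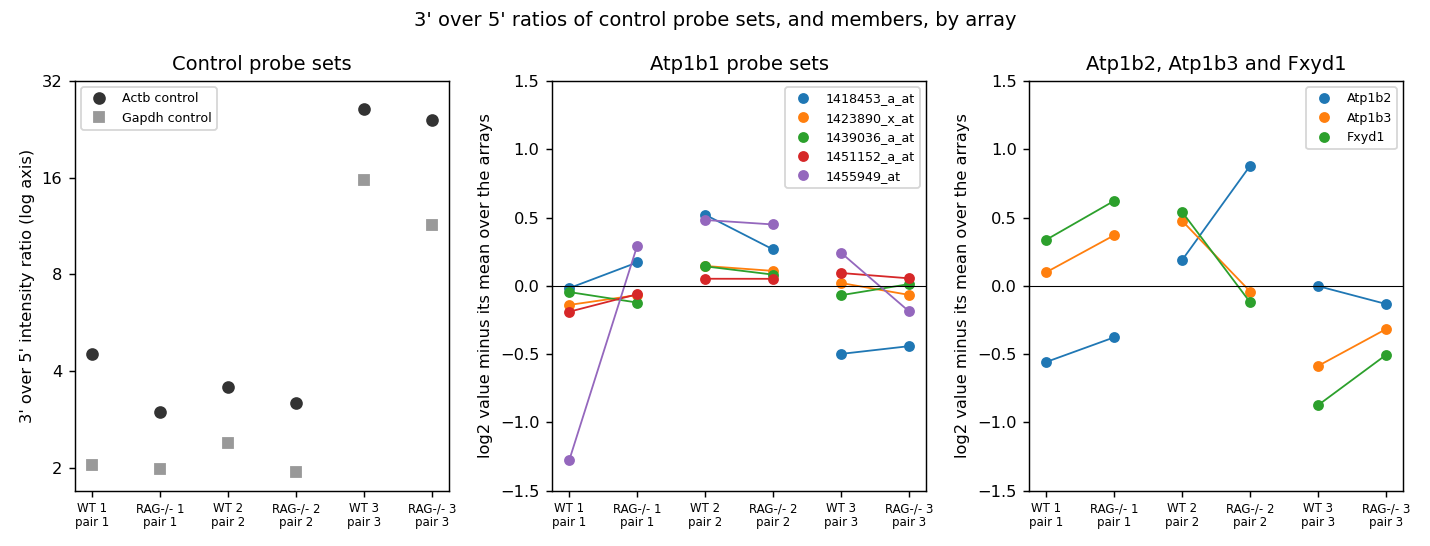
Left, 3' over 5' intensity ratio of the Actb and Gapdh control probe sets on each array (log axis). Middle and right, log2 value minus its mean over the 6 arrays for the 5 Atp1b1 probe sets and for Atp1b2, Atp1b3 and Fxyd1. Both pair 3 arrays have Actb ratios above 24, and on them Atp1b3, Fxyd1 and the Atp1b1 probe set 1418453_a_at lie lowest.

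Over the 6 arrays some members moved alike. Of the 15 pairings of members, 2 had a Pearson r above 0.9. Atp1b3 and Fxyd1 had r = 0.98 (Spearman rho = 0.94), and r = 0.98 without WT replicates 2 and 3, the arrays farthest from the median of Atp1b3. Fxyd6 and Fxyd7 had r = 0.95 (rho = 1.0), and 0.94 without RAG-/- replicate 2 and WT replicate 3. Fxyd7 passed the filter through RAG-/- replicate 2, so its correlations over all 6 arrays, here and below, draw on the array that admitted it. Without RAG-/- replicate 2 the pairings above 0.9 were 4, with Fxyd1 and Fxyd6 (0.95, against 0.55 over all 6 arrays) and Atp1b1 and Atp1b2 (0.93) added, so the 2 couples were apart only with that array included. These correlations are descriptions, with no p-value, since the arrays come in pairs and pair 3 and RAG-/- replicate 2 lie apart.

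With the mean of each pair removed, an r rests on 3 differences. Atp1b3 and Fxyd1 then had r = 0.997 and Fxyd6 and Fxyd7 r = 0.96. The same differences, WT to RAG-/-, went the same way in both members of each couple in 3 of 3 pairs. For Fxyd6 and Fxyd7 the largest were those of pair 2 (3.05 and 2.67), which holds RAG-/- replicate 2. Other pairings also reached large values, such as -0.88 for Atp1b3 and Fxyd7 and 0.83 for Atp1b2 and Fxyd7. Over the 4 arrays of pairs 1 and 2 alone the values were 0.90 and 0.99. Atp1b1 and Atp1b2 had r = 0.84, but -0.01 once pair means were removed and 0.30 on the values as deposited. Fxyd1 and Fxyd7 had r = 0.29, with -0.99 over pairs 1 and 2 but 0.78 without RAG-/- replicate 2. Among the 4 arrays of pairs 1 and 2, RAG-/- replicate 2 had the highest Fxyd7 and the lowest Fxyd1, while pair 3 was low in both. The sign of this relation thus depended on the arrays included.

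**Figure D3:**
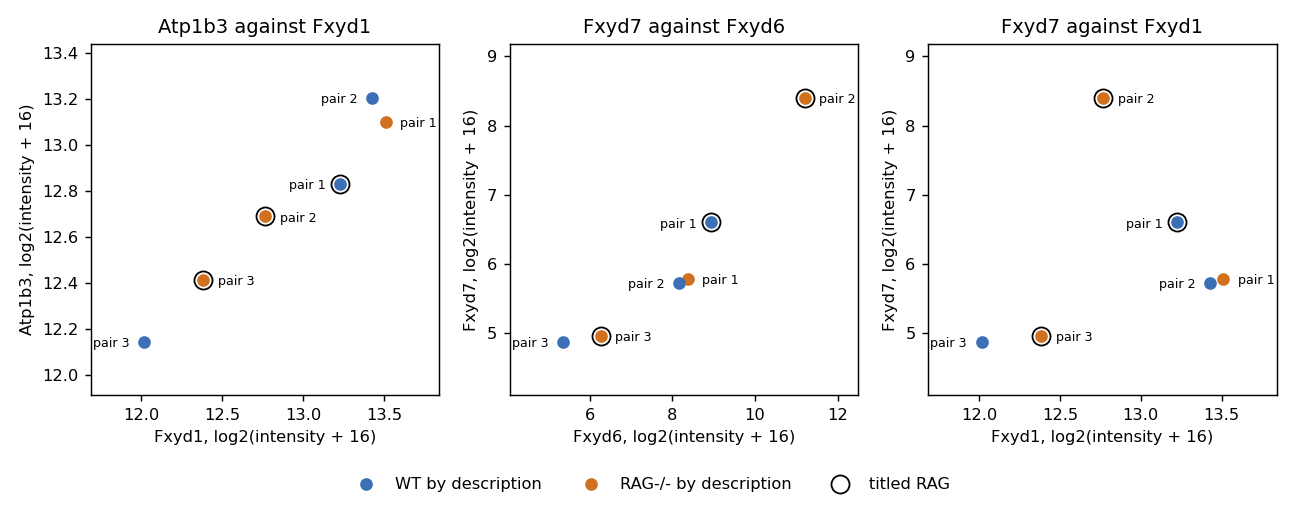
Log2 values of couples of members, 1 point per array, labelled by pair, with colour for the genotype by description and a ring for arrays titled RAG. Atp1b3 rises with Fxyd1 (r = 0.98) and Fxyd7 with Fxyd6 (r = 0.95), while Fxyd7 against Fxyd1 (r = 0.29) shows no common line.

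Fxyd6 and Fxyd7 were also set beside marker lists of cell types. The mean log2 value of the 10 astrocyte markers, led by Gja1, Aqp4 and Slc1a2, had r = 0.98 with Fxyd7 and 0.93 with Fxyd6 over the 6 arrays. The 13 neuron markers, led by Snap25, Syt1 and Gad1, had r = 0.92 with each of Fxyd6 and Fxyd7. Without RAG-/- replicate 2 the astrocyte values were 0.97 for Fxyd7 and 0.82 for Fxyd6, and the neuron values 0.76 and 0.82. Fxyd6 then also had 0.81 with the pericyte list, 0.80 with the endothelial list and 0.47 with the fibroblast list. Over all 6 arrays these were 0.14, -0.0037 and -0.45. On the 5 arrays other than RAG-/- replicate 2 the neuron list had r = 0.85 with each of Atp1b3 and Fxyd1 too, against 0.48 and 0.44 over all 6. The neuron list thus set Fxyd6 and Fxyd7 apart from Atp1b3 and Fxyd1 only with RAG-/- replicate 2 included. Of these markers 6 astrocyte and 10 neuron ones were lowest on both pair 3 arrays, as Fxyd6 and Fxyd7 were.

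The 14 epithelial markers, led by Ttr, Kcnj13 and Clic6, had r = -0.86 with Fxyd7 and -0.67 with Fxyd6, but -0.13 and 0.22 without RAG-/- replicate 2. Their r with Fxyd1 was 0.25 and with Atp1b3 0.23, and 0.93 with each once pair means were removed, which leaves 3 differences. Atp1b2 had r = 0.66 with the neuron list, 0.50 with the astrocyte list and -0.76 with the epithelial list, and all of these turned sign without RAG-/- replicate 2 (-0.04, -0.59 and 0.33). The positive values of Atp1b2 with both brain lists thus rested on that array. Fxyd7 kept r = 0.97 with the astrocyte list without it, but then also had 0.97 with the pericyte list, 0.94 with the endothelial list and 0.75 with the fibroblast list, against 0.02, -0.15 and -0.53 over all 6 arrays. Without RAG-/- replicate 2 the mean of Fxyd7 was 5.60, under the filter limit of 6.06, so its values without that array rest mostly on signal too dim to pass. In bulk preparations more cells of a type and more RNA per cell cannot be told apart.

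**Figure D4:**
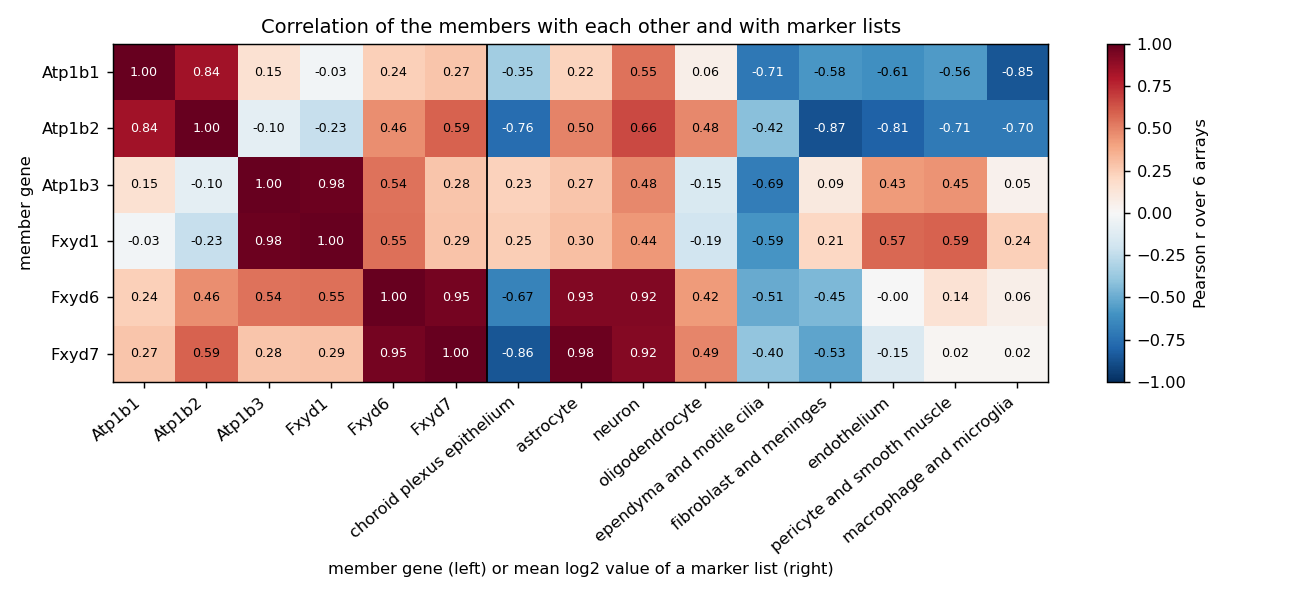
Pearson r over the 6 arrays of each member with every other member (left of the line) and with the mean log2 value of each marker list (right of the line). Atp1b3 and Fxyd1 (0.98) and Fxyd6 and Fxyd7 (0.95) form the red blocks among the members, and Fxyd6 and Fxyd7 have 0.92 or more with the astrocyte and neuron lists.

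The genes most like each member were sought among 10974 genes with an SD of at least 0.25 (10975 for Atp1b1, which is itself under that limit). Fxyd6 was followed most closely by Ttc9b (r = 0.997), Slc1a2 (0.991) and Wars (0.991), and Slc1a2 is the main glutamate transporter of astrocytes. Fxyd7 was followed by Rragc (0.997), Spock3 (0.996) and Lrfn5 (0.995), and Fxyd6 came at place 113 of its list. Genes with r above 0.9 made up 4.14% of those compared for Fxyd7 and 3.98% for Fxyd6. For Atp1b3 the nearest were Ncapd2 (0.996), Mpc1 (0.992) and Zswim7 (0.989), and Fxyd1 was at place 13. For Fxyd1 they were Elf2 (0.996), Pcna (0.994) and Zc3hc1 (0.990), with Atp1b3 at place 17, and the shares above 0.9 were 2.47% for Fxyd1 and 2.29% for Atp1b3. Atp1b2 was nearest to Prrg3 (0.994), Cep19 (0.988) and Extl2 (0.987) and Atp1b1 to Plekhg6 (0.985), Luc7l3 (0.982) and Cnot3 (0.981), with 1.96% and 0.838% of genes above 0.9.

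Members that moved alike were not neighbours on a chromosome. Fxyd7 and Fxyd1 are direct neighbours on chromosome 7 in the GRCm38.p6 gene table, and had r = 0.29. Fxyd5 precedes Fxyd7 (r = -0.18) and Lgi4 follows Fxyd1 (r = 0.74). Fxyd2, the gene after Fxyd6 on chromosome 9, was below the filter on dim probe sets and had r = -0.02 with it. Atp1b3, on the same chromosome, lies between Tfdp2 (r = -0.19) and Rnf7 (r = 0.49), Atp1b1 on chromosome 1 between Nme7 (r = -0.19) and Dpt (r = -0.39), and Atp1b2 on chromosome 11 precedes Shbg (r = 0.54).

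RAG-/- and WT were then compared by description, the genotype reading in which pair 1 counts as swapped. No member passed the test in limma (Benjamini-Hochberg adjusted p = 1 for each of the 6), and 0.0% of the 27023 probe sets tested were called, with 192 at an unadjusted p under 0.05. The 3 WT and 3 RAG-/- arrays overlapped in all 6 members, and the share of genes whose arrays did not overlap was 3.1%. For single genes, the smallest p that an exact two-sided permutation test can reach with 3 arrays in each group is 0.1.

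The beta subunits and Fxyd1 had small differences by description. Atp1b1 was 14.12 ± 0.14 in WT and 14.10 ± 0.10 in RAG-/- (SD, n = 3 each), a difference of -0.02 with a 95% interval of -0.36 to 0.33 (exact permutation p = 0.9). For Atp1b3 the difference was 0.01 (-0.71 to 0.72, exact permutation p = 1.0) and for Fxyd1 -0.0027 (-0.97 to 0.96, exact permutation p = 1.0). Their near-zero means hid opposite pairs: Fxyd1 differed by 0.29, -0.66 and 0.37 in pairs 1, 2 and 3, and Atp1b3 by 0.27, -0.52 and 0.27. Atp1b2 was 12.11 ± 0.39 in WT and 12.36 ± 0.67 in RAG-/- (SD, n = 3 each), a difference of 0.25 (-0.59 to 1.08, exact permutation p = 0.7), and the pairs differed by 0.18, 0.69 and -0.13.

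Fxyd6 and Fxyd7 had the largest differences of the 6 and the widest intervals. Fxyd6 was 7.48 ± 1.89 in WT and 8.62 ± 2.47 in RAG-/- (SD, n = 3 each), a difference of 1.13 (-1.82 to 4.08, exact permutation p = 0.5). Fxyd7 was 5.74 ± 0.86 in WT and 6.39 ± 1.79 in RAG-/- (SD, n = 3 each), a difference of 0.65 (-1.32 to 2.62, exact permutation p = 0.6). Both were smaller than the spread between replicates. In pair 2 Fxyd6 was higher in RAG-/- by 3.05 and Fxyd7 by 2.67, while in pair 1 they differed by -0.57 and -0.81 and in pair 3 by 0.93 and 0.08. Without RAG-/- replicate 2 the differences turned to -0.16 for Fxyd6 and -0.36 for Fxyd7.

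By title the same test called no member, with adjusted p = 0.999936 for each, and again 0.0% of probe sets (333 at an unadjusted p under 0.05). Both readings use the same 6 arrays and differ only in pair 1. The arrays of the groups overlapped in all 6 members, against 4.73% of genes whose arrays did not. Fxyd6 was 7.29 ± 1.69 in WT and 8.81 ± 2.47 in RAG-/- (SD, n = 3 each), a difference of 1.52 (-1.33 to 4.36, exact permutation p = 0.4). Fxyd7 was 5.47 ± 0.51 in WT and 6.66 ± 1.72 in RAG-/- (SD, n = 3 each), a difference of 1.19 (-0.62 to 2.997, exact permutation p = 0.3). Without RAG-/- replicate 2 each of these 2 differences was 0.32.

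By title both Fxyd6 and Fxyd7 were higher in RAG-/- in 3 of 3 pairs, and by description in 2 of 3. The count and tests of Fxyd7 draw on the array that let it pass the filter, and support nothing by themselves. With the pair as a block the difference of Fxyd6 by title kept its size, with a standard error of 0.47 in place of 1.24, and limma gave an unadjusted p = 0.0160 and an adjusted p = 0.926. In that fit 0.0037% of the 27023 probe sets were called, none of them of a member, and 1119 had an unadjusted p under 0.05. By description the blocked limma fit gave Fxyd6 an unadjusted p = 0.120. The summed deposited intensity of the astrocyte markers was 17021 to 33925 in WT and 15551 to 45057 in RAG-/- by description, and that of the neuron markers 14951 to 42725 and 9441 to 74720. By title the astrocyte sums of pairs 1 to 3 were 21394, 20416 and 17021 in WT and 33925, 45057 and 15551 in RAG-/-. They were thus higher in RAG-/- in pairs 1 and 2 and lower in pair 3. The neuron ranges were the same by title. Both lists were highest on RAG-/- replicate 2, and their part in the differences of Fxyd6 and Fxyd7 was not tested. The other members differed by title by -0.07 (Atp1b1), 0.13 (Atp1b2), -0.17 (Atp1b3) and -0.19 (Fxyd1), each less than its spread between replicates.

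**Figure D5:**
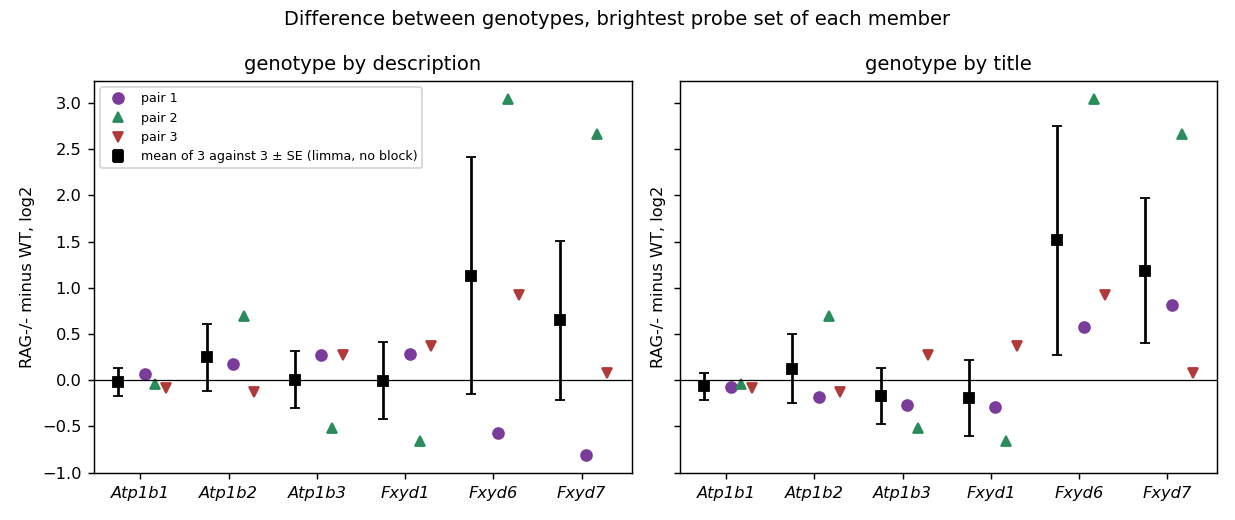
Difference RAG-/- minus WT in log2 value for each member, by description (left) and by title (right): the mean of 3 against 3 arrays with the limma standard error (black) and the difference within each pair. Pair 2 gives 3.05 for Fxyd6 and 2.67 for Fxyd7, and pair 1 changes sign between the panels.

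Ratios within an array, as differences of log2 values, set members against each other. Fxyd6 over Fxyd1 was -4.28, -5.27 and -6.67 in WT replicates 1 to 3 and -5.14, -1.56 and -6.11 in RAG-/- replicates 1 to 3. The pair 3 ratios rest on Fxyd6 signal that was dim there, at the 23.9th and 42.3rd percentile. RAG-/- replicate 2 lay apart from the other 5 arrays, in which the ratio was -4.28 or lower. The genotypes differed in this ratio by 1.14 in the description reading (exact permutation p = 0.6) and by 1.71 in the title reading (exact permutation p = 0.3).

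Fxyd7 over Fxyd1 was -6.62, -7.70 and -7.13 in WT replicates 1 to 3 and -7.72, -4.36 and -7.42 in RAG-/- replicates 1 to 3, and its exact permutation p was 0.9 for a difference of 0.65 by description and 0.2 for 1.38 by title. Again RAG-/- replicate 2 had the highest ratio and the remaining arrays overlapped. Only on RAG-/- replicate 2 and WT replicate 1 was Fxyd7 above the filter limit, so the other ratios to Fxyd1 rest on dim signal. Atp1b2 over Atp1b1, the beta subunit named for glia over the common one of epithelia, lay between -2.29 and -1.83 on 5 arrays. It was -1.10 on RAG-/- replicate 2. Its exact permutation p was 0.7 for a difference of 0.26 by description and 0.9 for 0.19 by title. Atp1b2 over Atp1b3 differed by 0.24 and 0.30 and Atp1b3 over Atp1b1 by 0.03 and -0.11, with exact permutation p between 0.7 and 1.0. A ratio shows unequal change only, and none of the 5 separated the genotypes.

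Other genes of the pump and of its regulation were taken from a list of 25, of which 21 had a probe set with a single symbol and 15 passed the filter. None of the 15 was called by limma in either reading, with or without the block. By description 7 were higher and 8 lower, with a median of -0.05 against -0.01 over all 13537 genes. By title 10 were higher and 5 lower, with a median of 0.12 against -0.02. Values ran from -0.70 for Fxyd5, a regulator also known as dysadherin, to 1.33 for Nkain2, a protein that interacts with the pump, by description, and from -0.39 (Oxsr1, a kinase of ion cotransport) to 1.40 (Nkain2) by title.

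Of these 15 genes, Fxyd4 was lower in RAG-/- without overlap by description (-0.37), as were 1.41% of all genes. By title the brightest probe set of Ank3, an ankyrin that anchors membrane proteins, was higher without overlap (1.16) and Oxsr1 lower. The shares of all genes in these directions were 2.2% and 2.53%. The other Ank3 probe sets past the filter overlapped by title, with differences of 0.50 to 0.52. Under the filter, 1447259_at was higher (0.66) and 1457288_at lower (-0.46) without overlap. Sgk1, a kinase that acts on sodium transport, was bright on all 6 arrays, at 13.55 to 14.23, and so were the sodium, potassium and chloride cotransporter Slc12a2 at 13.94 to 14.52 and its kinase Stk39 at 12.88 to 13.74. The regulators Fxyd2 and Fxyd3, the alpha and beta forms Atp1a4 and Atp1b4, and the proton pump genes Atp4a and Atp12a were below the filter.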

How the data were processed

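The authors deposited 1 linear intensity per probe set for each of 6 arrays, 45101 probe sets in all. Scanner software and normalization: not given in the sources used here. The 64 control probe sets were left out and log2(intensity + 16) taken. Their 75th percentiles spanned 0.232, above the limit of 0.2, so arrays were quantile normalized. The lowest 40% of probe sets by mean were left out and 27023 tested with limma 3.58.1 (lmFit, eBayes with trend) in R 4.3.3, two-sided, Benjamini-Hochberg threshold 0.05. Correlations, ratios and exact permutation tests were made in Python 3.11.15 with SciPy 1.17.1. The planned permutation p-values of correlations are not given, because the arrays are not independent.

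The brightest probe set by mean stood for a gene. Of 45037 probe sets, 34945 had 1 symbol, 932 several and 9160 were unnamed here, and 34741 of the first matched RefSeq's GRCm38.p6 gene table. Promoters are RefSeq's of that build, held for 4 of the 6 members.

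Named were the members, the 25 listed pump genes, each member's 3 nearest genes by r (SD at least 0.25), Ttr and up to 3 leading markers per list described, and neighbouring genes. Xist was named because it was called with 1 array left out. Members and lists were chosen with earlier results of these data known, and the limit of 0.9 for r after seeing the values. Actb and Gapdh control ratios were added then too.

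Title codes were taken to pair the arrays: deviations from group means correlated at 0.29, 0.39 and 0.58 within pairs and -0.42 to 0.01 across them. The fit was tested on simulated data. Alternatives covered the block, normalization, pseudocount, filter, array weights, probe set choice and each array or pair left out.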

Additional observations from a re-analysis of the deposited data

How the results depend on the processing

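No member was called under any alternative run, so only directions are compared. Counts of called probe sets with each array left out were 0 to 4 by description and 0 by title. The 4 came without RAG-/- replicate 2. Among them Xist was lower in RAG-/- (-4.78, limma adjusted p = 0.0449). The others, without a single gene symbol here, were higher (4.80 to 7.89). The labels do not give sex, and its part in the genotype comparison was not tested. By title the replicate block gave 1 called probe set and array weights 2. With the block none of the member calls changed.

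Leaving out each array in turn, differences by description ran from -0.091 to 0.051 (Atp1b1), -0.13 to 0.50 (Atp1b2), -0.28 to 0.25 (Atp1b3), -0.44 to 0.27 (Fxyd1), -0.16 to 2.31 (Fxyd6) and -0.36 to 1.36 (Fxyd7). By title they ran from -0.14 to -0.0087 (Atp1b1), -0.28 to 0.44 (Atp1b2), -0.51 to 0.021 (Atp1b3), -0.68 to 0.070 (Fxyd1), 0.32 to 2.78 (Fxyd6) and 0.32 to 2.03 (Fxyd7).

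By description, other settings turned the sign of Atp1b1 (0.072 as the mean of all probe sets, 0.018 without pair 3), Atp1b3 (-0.12 without pair 1 and without pair 3), Fxyd1 (0.011 as deposited, 0.046 at a common median, 0.10 with array weights) and Fxyd7 (-0.094 with array weights). By title array weights turned Atp1b2 to -0.33. The cause was not tested. Leaving out pair 3 was chosen after seeing the data. It gave 1.24 for Fxyd6 and 0.93 for Fxyd7 by description, and 1.81 and 1.74 by title.

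Ratios by description, with each array left out, ran from -0.056 to 0.48 (Atp1b2 over Atp1b1), -0.27 to 0.20 (Atp1b3 over Atp1b1), -0.16 to 0.67 (Atp1b2 over Atp1b3), -0.22 to 2.06 (Fxyd6 over Fxyd1) and -0.42 to 1.26 (Fxyd7 over Fxyd1). By title they ran from -0.15 to 0.45, -0.44 to 0.085, -0.088 to 0.70, 0.50 to 2.77 and 0.50 to 2.02 in that order. Atp1b3 over Atp1b1 turned sign as the mean of all probe sets (-0.064 by description, 0.0063 by title) and, by description, without pair 3 (-0.14). Within pairs, as a replicate block, the reversed values by description were -0.044 in pair 3 (Atp1b2 over Atp1b1), -0.48 in pair 2 (Atp1b3 over Atp1b1), -0.090 in pair 1 and -0.40 in pair 3 (Atp1b2 over Atp1b3), -0.86 in pair 1 (Fxyd6 over Fxyd1), and -1.10 in pair 1 and -0.29 in pair 3 (Fxyd7 over Fxyd1). By title they were -0.11 in pair 1 and -0.044 in pair 3 (Atp1b2 over Atp1b1), 0.36 in pair 3 (Atp1b3 over Atp1b1), -0.40 in pair 3 (Atp1b2 over Atp1b3) and -0.29 in pair 3 (Fxyd7 over Fxyd1).

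The count of pairings with r above 0.9 was 2 to 4 with each array left out, 4 without RAG-/- replicate 2. Mean percentiles of the other probe sets were 98.6 (1418453_a_at), 99.4 (1451152_a_at) and 54.7 (1455949_at) for Atp1b1 and 52.2 (1422009_at) for Atp1b2. The signals of Fxyd6 and Fxyd7 in pair 3, under the median of those arrays, limit what their differences and ratios show. Outside pair 3 Fxyd7 was under the array median as well, except on RAG-/- replicate 2.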
